A study of Mus musculus with 15 samples.

Results

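The unfolded protein response and the integrated stress response were followed through 40 genes in cultured mouse cardiac fibroblasts. The genes were taken from a list of pathway names, and each was read from the array probe set that named only that gene and had the highest mean over all arrays. The list was chosen with earlier results of these data known, so counts of its members are descriptions. All 40 were found among the 19938 genes with such a probe set. They fell into a class of 17 genes known as targets of the transcription factor ATF4, a class of 18 endoplasmic reticulum (ER) chaperones and genes of ER-associated degradation (ERAD) known as targets of ATF6 and XBP1, and 5 sensors and factors in neither class (Eif2ak3, Ern1, Atf6, Xbp1 and Atf4).

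The cells were cardiac colony-forming unit fibroblasts (cCFU-F), heart stromal cells able to grow into colonies from sparse plating. They came from C57BL/6 mice labelled as male and 12 weeks old, and the labels describe the isolated cells as SCA1+PDGFRα+CD31-. RNA was measured on 15 arrays, 3 in each of 5 groups. The groups were small colonies treated with PDGF-AB at passage 15, small colonies treated with PDGF-AB at passage 5, untreated large colonies at passage 15, untreated large colonies at passage 5, and untreated small colonies at passage 5. PDGF-AB, a dimeric platelet-derived growth factor that binds PDGF receptors, was used at 50 ng/ml. The treatment text that all samples share also names AG1296, an inhibitor of PDGF receptor kinase activity, and no sample is labelled with it. Untreated small colonies at passage 15 were not analysed here, and colony size and PDGF-AB cannot be told apart wherever treated small colonies are set against large ones. Nothing in the labels ties the arrays of a group to separate animals or cultures, and p-values therefore reflect array-to-array spread that may be technical. Each group enters more than 1 comparison, so the comparisons share arrays and are not independent of each other.

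When unfolded proteins build up in the ER, 3 membrane sensors respond. PERK (gene Eif2ak3) phosphorylates the translation factor eIF2α, IRE1 (gene Ern1) splices Xbp1 RNA into the form that makes an active factor, and ATF6 is cut to release a factor that enters the nucleus. XBP1 and ATF6 raise chaperone and ERAD genes. Phosphorylation of eIF2α, which other kinases also carry out when amino acids are short, favours translation of Atf4 RNA, and ATF4 raises genes of amino acid supply and of stress feedback. Fibroblasts secrete collagen and other matrix proteins, which are folded in the ER and draw on the same amino acids.

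The 2 target classes differ in known promoter elements, and the sequences around these elements are shown because the classes are compared throughout. Promoter windows of 300 bases (250 before and 50 after the gene start) from RefSeq, build GRCm38.p6, were found for 36 members and not for Atf6, Slc7a5, Hyou1 and Manf. Windows were searched on both strands for the ER stress element, CCAAT and CCACG with 9 bases between them. It was present in 8 of 16 ER class genes, 0 of 16 ATF4 class genes and 0 of 4 others, against 39 of 32851 windows of all genes (0.119%). The core of the C/EBP-ATF response element, TGATGNAAN with N for any base, was present in 5 of 16 ATF4 class genes and in 1 of 16 ER class genes (Herpud1), against 1299 of 32851 windows (3.95%). No member's window held both motifs. Only exact matches were counted, so elements that differ from the motif by a base are missed. A match is a description of letters and does not show that a factor binds.

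The first promoter is that of Hspa5, which encodes BiP, the main ER chaperone, and the second that of Chac1, which encodes an enzyme that degrades glutathione. The 250 bases before each gene start are given 5′ to 3′ on the strand of the gene. Capitals mark the exact match to the ER stress element in Hspa5. In Chac1 they mark the response element core, which lies on the opposite strand.
Hspa5 (chr2:34771840-34772089, plus strand): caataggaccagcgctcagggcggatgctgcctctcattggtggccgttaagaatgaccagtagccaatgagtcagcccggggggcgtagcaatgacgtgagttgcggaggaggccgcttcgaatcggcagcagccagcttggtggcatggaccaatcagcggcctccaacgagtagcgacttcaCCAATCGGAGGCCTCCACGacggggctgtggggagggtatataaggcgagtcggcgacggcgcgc
Chac1 (chr2:119350992-119351241, plus strand): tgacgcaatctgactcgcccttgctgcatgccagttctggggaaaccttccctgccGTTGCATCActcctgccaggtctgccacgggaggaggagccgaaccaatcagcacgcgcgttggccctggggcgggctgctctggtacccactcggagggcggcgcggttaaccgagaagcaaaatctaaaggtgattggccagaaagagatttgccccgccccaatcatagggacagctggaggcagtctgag
The element of Hspa5 was centred 56 bases before the gene start and that of Chac1 190 bases before it.

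The other ER stress elements, in capitals with 20 bases on each side, were in Hsp90b1 (which held 2 of them), Calr, Canx, Pdia6, Dnajc3, Creld2 and Syvn1. They are printed on the strand of the gene, so an element on the opposite strand starts with CGTGG.
Hsp90b1 (chr10:86705618-86705676, minus strand): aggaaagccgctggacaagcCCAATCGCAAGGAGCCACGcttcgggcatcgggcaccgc
Hsp90b1 (chr10:86705513-86705571, minus strand): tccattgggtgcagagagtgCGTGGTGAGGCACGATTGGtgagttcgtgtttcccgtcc
Calr (chr8:84847055-84847113, minus strand): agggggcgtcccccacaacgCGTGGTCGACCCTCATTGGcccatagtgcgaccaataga
Canx (chr11:50325780-50325838, minus strand): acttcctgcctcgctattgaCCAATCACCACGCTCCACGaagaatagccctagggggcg
Pdia6 (chr12:17266471-17266529, plus strand): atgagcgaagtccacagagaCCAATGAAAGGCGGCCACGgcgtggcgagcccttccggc
Dnajc3 (chr14:118937807-118937865, plus strand): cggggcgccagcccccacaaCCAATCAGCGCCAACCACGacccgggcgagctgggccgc
Creld2 (chr15:88819500-88819558, plus strand): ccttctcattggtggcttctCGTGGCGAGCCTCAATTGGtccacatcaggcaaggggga
Syvn1 (chr19:6046512-6046570, plus strand): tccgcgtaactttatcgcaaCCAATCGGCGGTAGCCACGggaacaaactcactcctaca
With that of Hspa5, the 9 elements lay between 35 and 203 bases before the gene start.

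Response element cores upstream of other members are shown in capitals with 15 bases on each side. Trib3 also held a core, centred 17 bases after the gene start.
Atf3 (chr1:191183421-191183459, minus strand): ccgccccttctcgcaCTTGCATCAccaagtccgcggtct
Nupr1 (chr7:126625558-126625596, minus strand): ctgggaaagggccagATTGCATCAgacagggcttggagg
Asns (chr6:7693209-7693247, minus strand): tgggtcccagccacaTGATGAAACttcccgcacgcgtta
Herpud1 (chr8:94386301-94386339, plus strand): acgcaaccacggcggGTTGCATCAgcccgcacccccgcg
Asns carried its core on its own strand, and Atf3, Nupr1 and Herpud1 carried it on the opposite strand.

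**Figure D1:**
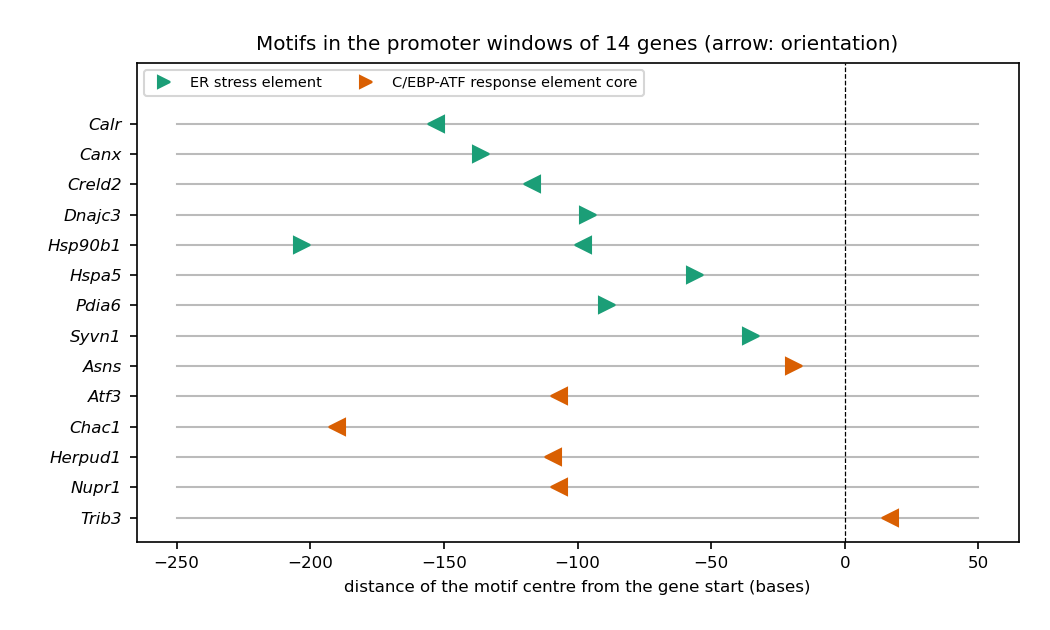
Positions of the ER stress element and of the response element core in the promoter windows of the 14 members that held one (horizontal axis, distance of the motif centre from the gene start in bases; arrowheads show orientation relative to the gene). The ER stress elements sit in chaperone and ERAD genes upstream of the start, and the cores sit in 5 ATF4 class genes and in Herpud1.

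Values are log2 intensities as deposited. Array medians lay between 5.59 and 5.72, and Pearson's r across genes, which are not independent replicates, was 0.997 to 0.998 within groups and 0.958 to 0.991 between groups. All 40 members had means above the median over all genes of 6.00, with means over the 15 arrays between 6.61 and 12.02. Of the fibroblast markers, Vim lay between 12.67 and 12.78 and Col1a1 between 10.21 and 12.30 (group means), while Fap, at 3.11 to 3.65, was below the lower quartile of the arrays. Pdgfra, whose protein was used to isolate the cells, was at 8.84 in large colonies at passage 15 and at 6.28 to 6.66 in the other groups. Thy1 was at 10.33 to 10.63 in large and at 5.11 to 5.49 in small colonies. Endothelial markers averaged 4.61 to 4.98 per array, with Pecam1 (CD31) at 4.29 to 4.59. Leukocyte markers averaged 4.82 to 5.43 with Ptprc at 3.86 to 4.12, although Lyz2 reached 9.18, and cardiomyocyte markers averaged 5.42 to 5.87 with Myh6 at 4.91 to 5.08, although Tnnt2 reached 10.44. Pericyte markers averaged 6.21 to 6.57, although Mcam reached 9.29, Cspg4 9.13 and Rgs5 8.49, and 4 of 6 had means above the median over all genes. In cells labelled male, Xist, which silences 1 X chromosome in female cells, ranged over 8.93 to 10.88. The values of 6 Y-linked genes lay between 1.86 and 3.42 in all arrays, below the lower quartile of the arrays (4.06 to 4.23). These levels are at odds with the male label, and the reason was not tested. In bulk RNA, fewer cells of a type and less RNA per cell cannot be told apart.

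Across the groups, levels of the ATF4 targets covered a wider range than those of the ER genes. The mean level of the 17 ATF4 targets was 9.60 to 9.63 per array in treated small colonies at passage 15 and 9.14 to 9.18 at passage 5. It was 8.54 to 8.61 in untreated large colonies at passage 15 and 9.26 to 9.28 at passage 5, and 9.34 to 9.41 in untreated small colonies at passage 5. The arrays of the 5 groups did not overlap, and large colonies at passage 15 stood lowest. The mean of the 18 ER genes stayed between 9.97 and 10.17 in all 15 arrays. The range of a gene's group means had a median of 1.19 in the ATF4 class (from 0.44 for Slc3a2 to 2.23 for Nupr1) and of 0.46 in the ER class (from 0.08 for Canx to 0.91 for Pdia6), beside 0.58 over the upper 9969 genes by mean level. Treated small colonies at passage 15 held the highest mean for 12 of 17 ATF4 targets, and large colonies at passage 15 held the lowest mean for 12 of 17. No group held the highest or the lowest mean of more than 7 of the 18 ER genes. The difference between the classes was not tested.

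**Figure D2:**
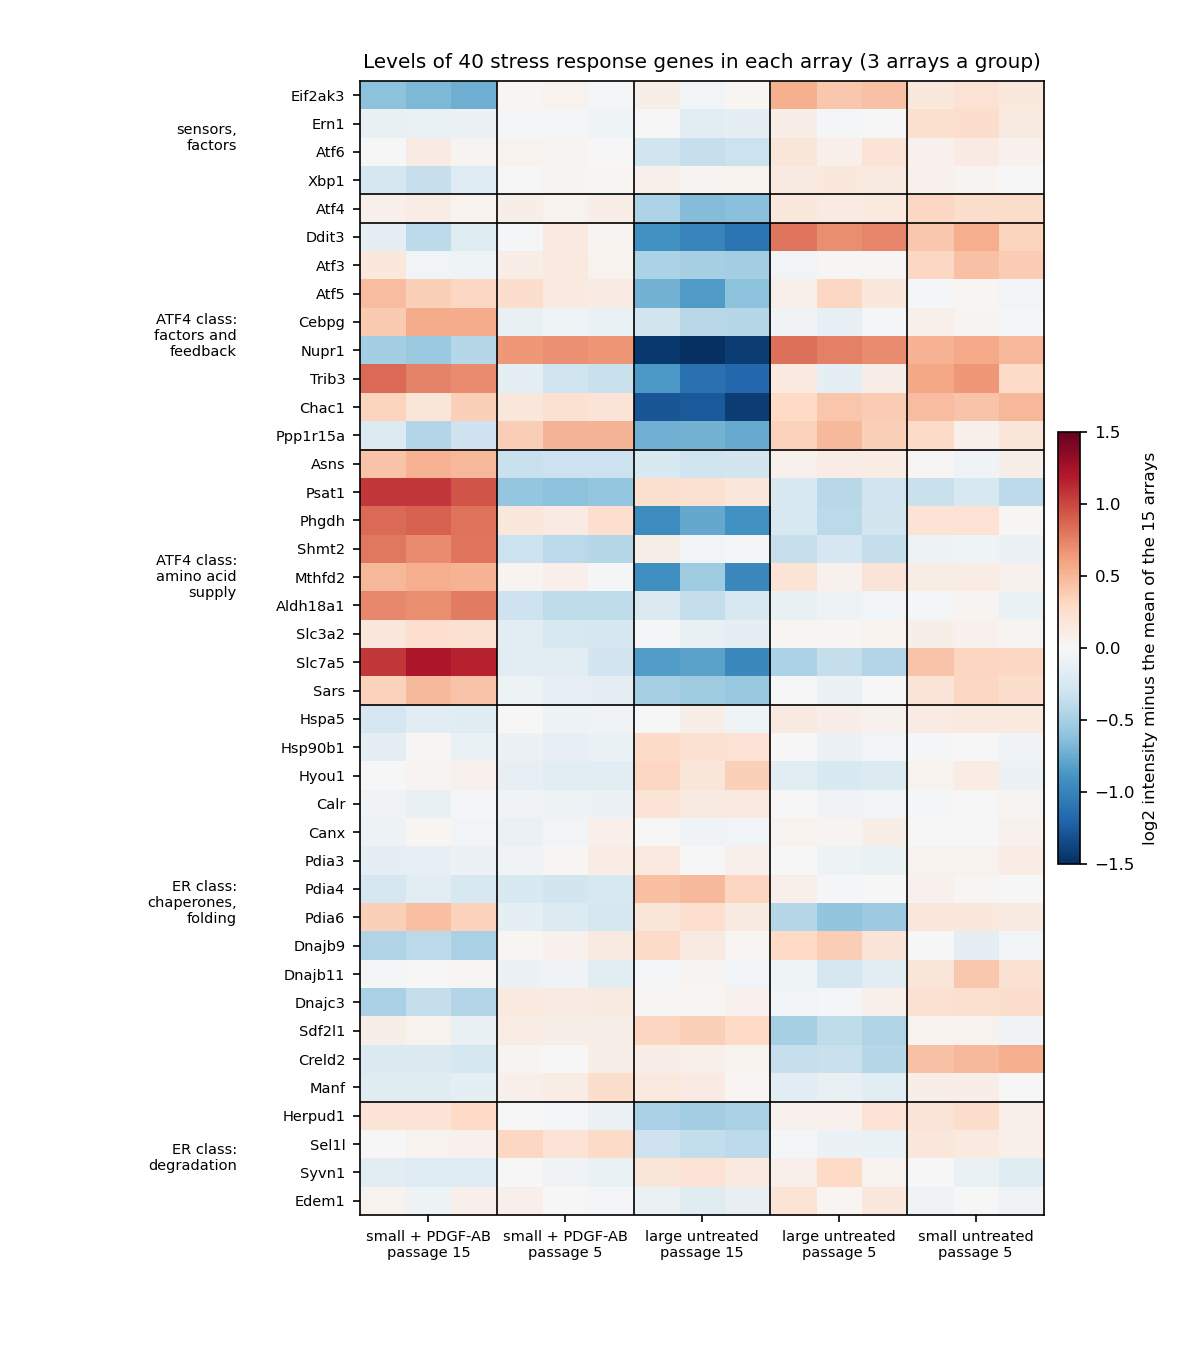
Levels of the 40 members in each of the 15 arrays, shown as log2 intensity minus the gene's mean over the arrays (rows, genes by role; columns, 3 arrays in each group; red above and blue below the mean, colours saturating at 1.5). ATF4 target rows are lowest in untreated large colonies at passage 15 for 12 of 17 genes, and chaperone rows show smaller differences.

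Upstream factors differed in which group stood lowest (the 3 arrays of a group are given in replicate order). Atf4 (chr15:80255184-80257545), the factor that gives the class its name, lay at 8.08, 8.11 and 8.05 in treated small colonies at passage 15, and at 8.09, 8.05 and 8.10 at passage 5. For Atf4, large colonies gave 7.54, 7.35 and 7.37 at passage 15, against 8.16, 8.12 and 8.15 at passage 5, and untreated small colonies gave 8.31, 8.26 and 8.28. Large colonies at passage 15 stood apart below all other arrays, and treated small colonies at both passages overlapped. Atf6 was at 8.89, 9.02 and 8.93 in treated small colonies at passage 15, and at 8.94, 8.93 and 8.90 at passage 5. For Atf6, large colonies gave 8.59, 8.54 and 8.57 at passage 15, against 9.07, 8.97 and 9.10 at passage 5, and untreated small colonies gave 8.95, 9.01 and 8.96. Atf6 was thus lowest in large colonies at passage 15, as Atf4 was, with the other 4 groups close together. Xbp1 was at 10.15, 10.05 and 10.21 in treated small colonies at passage 15, and at 10.39, 10.44 and 10.43 at passage 5. For Xbp1, large colonies gave 10.48, 10.44 and 10.45 at passage 15, against 10.54, 10.56 and 10.54 at passage 5, and untreated small colonies gave 10.47, 10.44 and 10.41. Xbp1 was lowest in treated small colonies at passage 15, and the value did not separate spliced from unspliced RNA. Eif2ak3 had group means of 6.75 and 7.44 in treated small colonies at passages 15 and 5, of 7.45 and 7.89 in large colonies at passages 15 and 5, and of 7.60 in untreated small colonies.

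Transcription factors and feedback genes downstream of ATF4 gave the widest spread. Ddit3 (chr10:127290793-127296291), which encodes the stress factor CHOP, lay at 8.26, 8.00 and 8.21 in treated small colonies at passage 15, and at 8.38, 8.54 and 8.43 at passage 5. For Ddit3, large colonies gave 7.48, 7.39 and 7.30 at passage 15, against 9.20, 9.09 and 9.13 at passage 5, and untreated small colonies gave 8.80, 8.94 and 8.73. No 2 groups overlapped, with large colonies at passage 15 lowest and large colonies at passage 5 highest. Chac1 was at 9.41, 9.26 and 9.43 in treated small colonies at passage 15, and at 9.24, 9.30 and 9.27 at passage 5. For Chac1, large colonies gave 7.79, 7.81 and 7.66 at passage 15, against 9.37, 9.49 and 9.45 at passage 5, and untreated small colonies gave 9.54, 9.50 and 9.57. Chac1 was low in large colonies at passage 15, and the other 12 arrays lay within 9.24 and 9.57. Nupr1 (chr7:126623246-126625470), a small stress-induced nuclear protein, was at 10.09, 10.04 and 10.17 in treated small colonies at passage 15, and at 11.25, 11.28 and 11.26 at passage 5. For Nupr1, large colonies gave 9.15, 9.07 and 9.17 at passage 15, against 11.42, 11.35 and 11.31 at passage 5, and untreated small colonies gave 11.12, 11.17 and 11.10. Both passage 15 groups were low for Nupr1, large colonies the lower. Trib3, a pseudokinase that restrains ATF4 activity, was at 7.60, 7.50 and 7.46 in treated small colonies at passage 15, and at 6.62, 6.46 and 6.42 at passage 5. For Trib3, large colonies gave 5.90, 5.64 and 5.58 at passage 15, against 6.90, 6.62 and 6.85 at passage 5, and untreated small colonies gave 7.34, 7.41 and 7.04. Trib3 was highest in treated small and lowest in large colonies at passage 15. Atf3, another stress-induced factor, was at 6.77, 6.57 and 6.55 in treated small colonies at passage 15, and at 6.71, 6.75 and 6.66 at passage 5. For Atf3, large colonies gave 6.14, 6.11 and 6.09 at passage 15, against 6.57, 6.63 and 6.63 at passage 5, and untreated small colonies gave 6.92, 7.05 and 6.99. Atf3 was highest in untreated small colonies and lowest in large colonies at passage 15.

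Genes of amino acid supply had another order of groups. Asns, which makes asparagine, lay at 11.63, 11.72 and 11.69 in treated small colonies at passage 15, and at 10.86, 10.87 and 10.87 at passage 5. For Asns, large colonies gave 10.97, 10.90 and 10.92 at passage 15, against 11.26, 11.31 and 11.31 at passage 5, and untreated small colonies gave 11.22, 11.15 and 11.28. Treated small colonies held both the highest arrays, at passage 15, and the lowest, at passage 5. Psat1, an enzyme of serine synthesis, was at 10.63, 10.63 and 10.52 in treated small colonies at passage 15, and at 8.99, 8.96 and 8.99 at passage 5. For Psat1, large colonies gave 9.81, 9.80 and 9.74 at passage 15, against 9.35, 9.16 and 9.27 at passage 5, and untreated small colonies gave 9.24, 9.33 and 9.18. Psat1 was higher at passage 15 than at passage 5 in both colony types. Slc7a5 (chr8:121881146-121907686), the light chain of a carrier of large neutral amino acids, was at 11.71, 11.87 and 11.81 in treated small colonies at passage 15, and at 10.50, 10.48 and 10.37 at passage 5. For Slc7a5, large colonies gave 9.82, 9.85 and 9.69 at passage 15, against 10.18, 10.30 and 10.21 at passage 5, and untreated small colonies gave 11.08, 10.97 and 10.96. The 5 groups did not overlap for Slc7a5, with treated small colonies highest and large colonies lowest at passage 15.

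Among the ER genes, Hspa5 (chr2:34772090-34776529) was high and nearly even, at 11.09, 11.17 and 11.16 in treated small colonies at passage 15, and at 11.33, 11.26 and 11.28 at passage 5. For Hspa5, large colonies gave 11.34, 11.42 and 11.27 at passage 15, against 11.47, 11.44 and 11.40 at passage 5, and untreated small colonies gave 11.46, 11.48 and 11.48. Treated small colonies at passage 15 were lowest for Hspa5. Sdf2l1 (chr16:17130138-17132383), a chaperone partner in the ER, was at 9.64, 9.60 and 9.44 in treated small colonies at passage 15, and at 9.66, 9.64 and 9.64 at passage 5. For Sdf2l1, large colonies gave 9.88, 9.91 and 9.85 at passage 15, against 9.06, 9.17 and 9.10 at passage 5, and untreated small colonies gave 9.60, 9.60 and 9.50. Sdf2l1 was highest in large colonies at passage 15 and lowest in large colonies at passage 5. Pdia6, a protein disulphide isomerase, was at 9.71, 9.80 and 9.70 in treated small colonies at passage 15, and at 9.20, 9.14 and 9.10 at passage 5. For Pdia6, large colonies gave 9.53, 9.60 and 9.48 at passage 15, against 8.92, 8.76 and 8.80 at passage 5, and untreated small colonies gave 9.52, 9.51 and 9.49. Pdia6 was higher at passage 15 than at passage 5 in both colony types. Creld2, a secreted protein induced by ER stress, was at 8.88, 8.88 and 8.83 in treated small colonies at passage 15, and at 9.14, 9.09 and 9.19 at passage 5. For Creld2, large colonies gave 9.20, 9.17 and 9.15 at passage 15, against 8.75, 8.76 and 8.67 at passage 5, and untreated small colonies gave 9.54, 9.59 and 9.65. Creld2 was lowest in large and highest in untreated small colonies at passage 5.

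**Figure D3:**
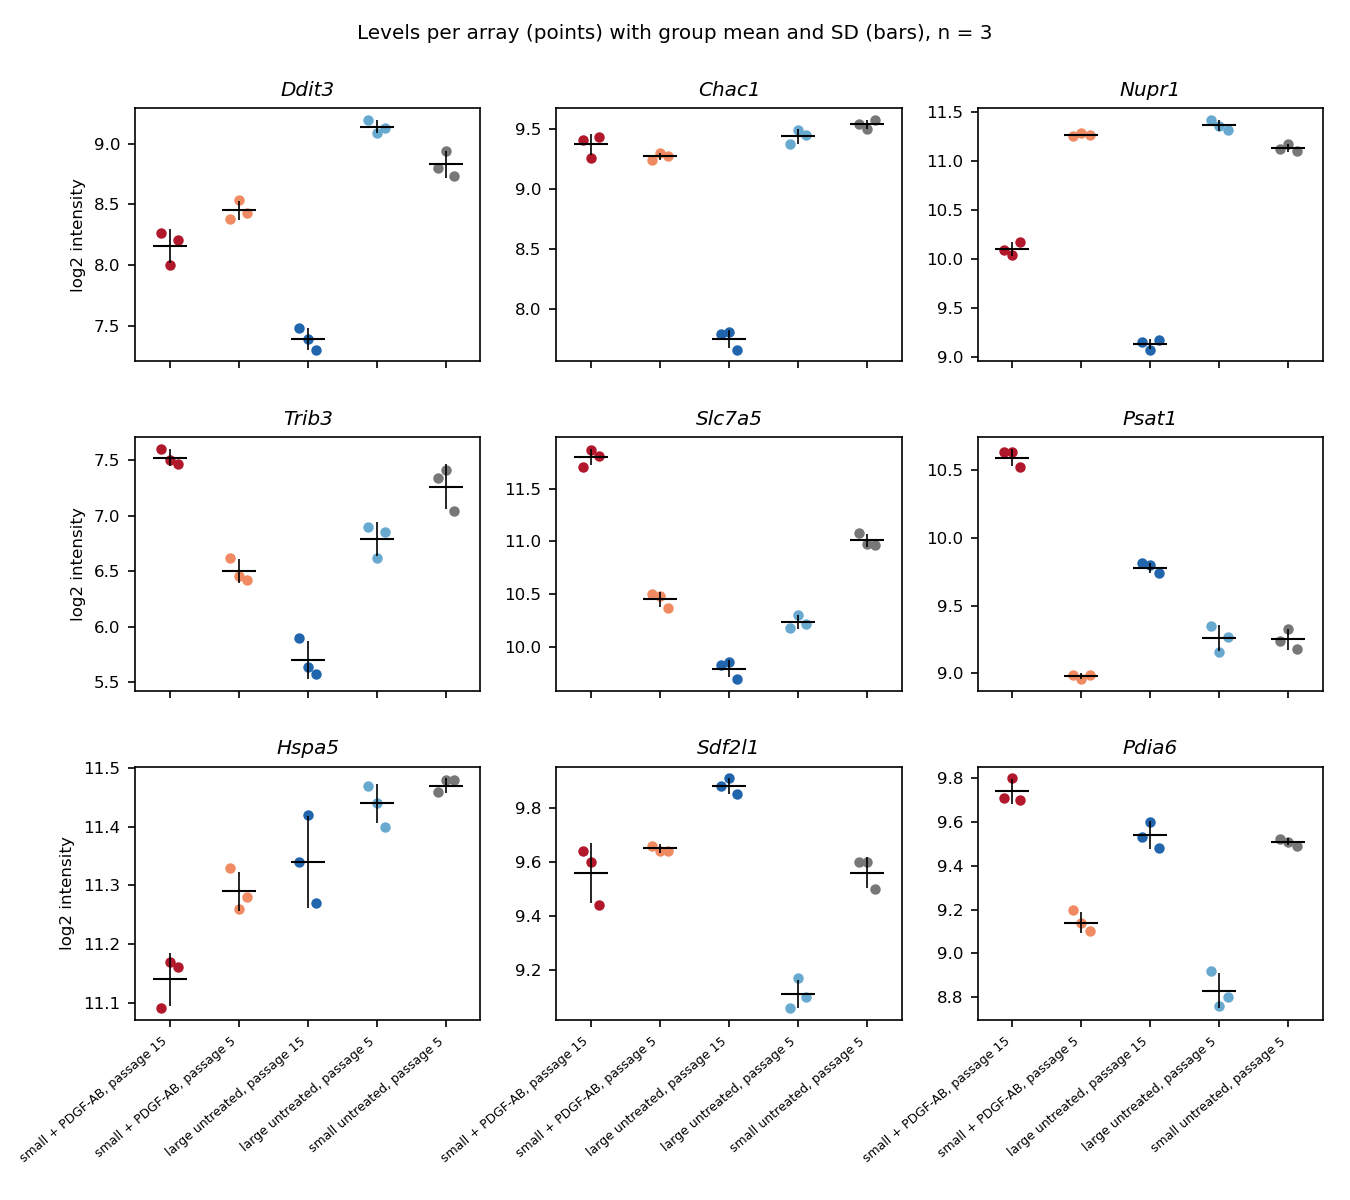
Log2 intensity of 9 members in each array (points), by group, with the group mean (horizontal bar) and SD (vertical bar, n = 3); each panel has its own scale and does not start at 0. Ddit3, Chac1, Nupr1, Trib3 and Slc7a5 are lowest in untreated large colonies at passage 15, and Trib3, Slc7a5 and Psat1 are highest in treated small colonies at passage 15.

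Passage 15 against passage 5 in untreated large colonies asked what time in culture changed without added growth factor. All 8 factor and feedback genes of the ATF4 class fell, with a median change of -1.10, while 8 of 14 chaperones and folding enzymes rose and 0 fell (median 0.22). Changes are log2 differences ± SE from one limma fit over the 15 arrays, and a change was called where the p-value adjusted over 19938 genes was under 0.05. Of the 40 members 10 were called higher and 20 lower, against 17.4% of all genes called higher and 18.7% lower, and the median over all genes was -0.04. At or above the median level, where all members lie, the shares were 28.8% and 28.0%. Nupr1 fell by 2.23 ± 0.056, a 4.7-fold lower level (adjusted p = 1.6e-14). Ddit3 fell by 1.75 ± 0.078, 3.37-fold (adjusted p = 1.8e-11), and Chac1 by 1.68 ± 0.062, 3.21-fold (adjusted p = 1.6e-12). Ppp1r15a, the phosphatase subunit that reverses eIF2α phosphorylation, lay at 6.62, 6.63 and 6.58 at passage 15, against 7.68, 7.82 and 7.70 at passage 5. Its arrays at passage 15 were all lower, a fall of 1.12 ± 0.072 (adjusted p = 2e-09). Trib3 fell by 1.09 ± 0.11 (adjusted p = 3.3e-07), Atf4 itself by 0.72 ± 0.057 (adjusted p = 2.4e-08) and Atf3 by 0.50 ± 0.063 (adjusted p = 6.9e-06). The bZIP factors Atf5 (-0.91) and Cebpg (-0.30), relatives and partners of ATF4, also fell.

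Amino acid genes were mixed in that comparison, with 6 of 9 lower and 2 higher (median -0.36). Mthfd2 (-0.97), a mitochondrial one-carbon enzyme, Phgdh (-0.56), the first enzyme of serine synthesis, Sars (-0.50), the seryl-tRNA synthetase, Slc7a5 (-0.45) and Asns (-0.36 ± 0.052, adjusted p = 3.1e-05) fell. Psat1 (0.52) and Shmt2 (0.33), the mitochondrial serine hydroxymethyltransferase, rose, and Slc3a2, the heavy chain that pairs with Slc7a5, changed by -0.13 (adjusted p = 0.0617). The call of Aldh18a1 (-0.20), which starts proline synthesis, was lost without replicate 2 of passage 15 (adjusted p = 0.0714) or replicate 3 of passage 5 (adjusted p = 0.0514). In the ER class, Sdf2l1 rose by 0.77 ± 0.06 (adjusted p = 2.2e-08), Pdia6 by 0.71, Hyou1, an exchange factor of BiP, by 0.49, Creld2 by 0.45, Pdia4, another disulphide isomerase, by 0.40, the ER HSP90 gene Hsp90b1 by 0.28, the secreted protein gene Manf by 0.24 and the lectin chaperone Calr by 0.20. Hspa5 changed by -0.09 ± 0.054 (adjusted p = 0.204), which did not pass the test. Of the ERAD genes Herpud1 (-0.62), Sel1l (-0.28) and Edem1 (-0.26) fell, and the ligase Syvn1 (0.04) was not called. Atf6 fell by 0.48 ± 0.055 (adjusted p = 2.5e-06) and Eif2ak3 by 0.44, while Ern1 (-0.13) and Xbp1 (-0.09 ± 0.053, adjusted p = 0.23) did not pass.

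Related genes outside the 40 members were counted in the same comparison. Over all genes 17.4% were called higher and 18.7% lower (28.8% and 28.0% at or above the median level). Of 17 tested aminoacyl-tRNA synthetases, which load amino acids onto tRNA, 4 rose and 9 fell (median -0.30), with Nars at -0.62 and Wars at -0.66. Of 23 other ATF4-linked genes 3 rose and 13 fell, among the risers Slc1a5 (1.50), a glutamine carrier, and among those that fell Vldlr (-1.74), a lipoprotein receptor. Of 28 genes of ER import, glycosylation and export 11 rose and 3 fell (median 0.12), with Spcs3, a signal peptidase subunit, at 0.89 and Ssr2, of the translocon-associated complex, at 0.58. Of 28 other ER folding and degradation genes 5 rose and 10 fell, with the ER oxidase Ero1a at -1.14. The collagen folding list had 5 of 15 higher and 7 lower, with the lysyl hydroxylase Plod2 at -1.12. Of 10 fibroblast markers 6 rose, led by Pdgfra (2.26), Col1a1 (1.43) and Col1a2 (1.32), and Dcn and Fap fell. Of 6 pericyte markers 3 rose, such as Kcnj8 (1.53), and 2 fell, Rgs5 (-1.69) and Mcam (-1.06). Cd14 (1.09) and Lyz2 (0.27) rose among 9 leukocyte markers, and single markers fell among 9 cardiomyocyte genes (Tnnt2, -0.67) and 9 endothelial genes (Tek, -0.46). The part of these cell type markers in the members' changes was not tested.

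Large against small untreated colonies at passage 5 asked how the colony types differed early in culture. Chaperones and folding enzymes were lower in large colonies for 7 of 14 genes and higher for 1 (median -0.17), and ATF4 targets went both ways. Of the 40 members 7 were called higher and 15 lower, against 18.2% of all genes called higher and 18% lower (26.2% and 29.1% at or above the median level, all-gene median 0.03). Creld2 was lower in large colonies, with a change of -0.87 ± 0.053 (adjusted p = 1e-09), and Pdia6 changed by -0.68 ± 0.059 (adjusted p = 7.9e-08). Sdf2l1 (-0.46 ± 0.06, adjusted p = 1.1e-05), the BiP co-chaperones Dnajb11 (-0.44) and Dnajc3 (-0.24), Hyou1 (-0.23) and Manf (-0.20) were lower too, and Dnajb9 (0.35), another co-chaperone, was higher. Hspa5 changed by -0.03 ± 0.054 (adjusted p = 0.677). Slc7a5 changed by -0.77 ± 0.065 (adjusted p = 5.9e-08), the largest change of the ATF4 class here, and Trib3 by -0.47 ± 0.11 (adjusted p = 0.00183). Phgdh (-0.45), Atf3 (-0.38 ± 0.063, adjusted p = 0.00011), Sars (-0.28) and Shmt2 (-0.25) were also lower in large colonies. Ddit3 was higher in large colonies by 0.31 ± 0.078 (adjusted p = 0.00424), as was Nupr1 (0.23). Chac1 (-0.10), Atf4 (-0.14), Atf6 (0.08), Xbp1 (0.11) and Asns (0.07) did not pass the test, with adjusted p between 0.0628 for Atf4 and 0.32 for Atf6.

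Of the sensors, Eif2ak3 was higher in large colonies (0.29) and Ern1 lower (-0.18). Sel1l, the scaffold of the ERAD ligase, was lower (-0.20). Several of the smallest calls rested on single arrays. Ern1 lost its call without replicate 2 (adjusted p = 0.0919) or 3 (0.0708) of the large colonies or without replicate 1 (0.0831) or 2 (0.093) of the small ones. Ppp1r15a (0.21) lost it without replicate 2 of the large colonies (adjusted p = 0.119) or replicate 2 (0.137) or 3 (0.0616) of the small ones, and Manf without replicate 2 of the small colonies (0.0533). Syvn1 (0.24) lost it without replicate 2 of the large (adjusted p = 0.073) or replicate 3 of the small colonies (0.0541), and Edem1 (0.16) without replicate 1 (0.15) or 3 (0.127) of the large or any of the small colonies (0.0614 to 0.106). Without replicate 3 of the small colonies 4 members were called higher. Of the 17 tRNA synthetases 6 were higher and 5 lower, and of the 23 other ATF4-linked genes 2 were higher and 11 lower, with Stc2 (a secreted glycoprotein, -2.26), Slc1a5 (-1.74) and the stress gene Ddit4 (-1.54) leading. Collagen folding genes were lower for 9 of 15, such as the collagen chaperone Serpinh1 (-0.75), and higher for 2. Genes of ER import, glycosylation and export were lower for 10 of 28, such as Spcs3 (-1.41), and higher for 6, such as Mcfd2 (0.76). For all lists of this comparison, the shares over all genes were 18.2% higher and 18% lower (26.2% and 29.1% at or above the median level). The lists were not tested against these shares. Fibroblast markers were higher in large colonies for 4 of 10 genes, Thy1 (5.22) first, and lower for 4, such as Col3a1 (-2.55) and Col1a1 (-1.95). Pericyte markers were higher for 3 of 6, such as Rgs5 (2.92), and lower for 2, Notch3 (-1.03) and Cspg4 (-0.89). Leukocyte markers were lower for 2 of 9, Cd14 (-1.86) and Lyz2 (-0.68), and higher for 1, Csf1r (0.31). Of 9 cardiomyocyte markers Tnnt2 (-1.62) was lower and Ryr2 (0.17) higher. Of 9 endothelial markers Kdr (0.48) and Tek (0.34) were higher and Egfl7 (-0.23) lower. The part of these cell type markers in these differences was not tested.

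PDGF-AB against no treatment in small colonies at passage 5 asked what the growth factor changed early. Of the 21 members called 20 fell, by 0.77 or less on the log2 scale. Of the 40 members 1 was called higher (Ppp1r15a, 0.28) and 20 lower, against 10.7% of all genes called higher and 18.2% lower (13.8% and 31.0% at or above the median level, all-gene median 0.02). The split of calls depended on scaling: 4 higher and 19 lower with arrays centred on their medians, and 6 higher and 18 lower with cyclic loess. Of the amino acid genes 7 of 9 fell (median -0.31), with Slc7a5 at -0.55 ± 0.065 (adjusted p = 7.8e-06), Sars at -0.36, Asns at -0.35 ± 0.052 (adjusted p = 9.6e-05), Aldh18a1 at -0.34, Shmt2 at -0.31, Slc3a2 at -0.29 and Psat1 at -0.27. Phgdh (0.04) and Mthfd2 (-0.06) were not called. Trib3 fell by 0.77 ± 0.11 (adjusted p = 3.9e-05), the largest change among the members. Ddit3 (-0.37 ± 0.078, adjusted p = 0.00179), Atf3 (-0.28 ± 0.063, adjusted p = 0.00258) and Chac1 (-0.27 ± 0.062, adjusted p = 0.00343) fell as well. Atf4 changed by -0.20 ± 0.057 (adjusted p = 0.0122), a call lost without replicate 2 of the treated colonies (adjusted p = 0.0503) and with cyclic loess (adjusted p = 0.117).

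Chaperones fell for 6 of 14 genes under PDGF-AB and rose for 0 (median -0.09). Over all genes 18.2% fell and 10.7% rose (31.0% and 13.8% at or above the median level). Creld2 fell by 0.46 ± 0.053 (adjusted p = 7.5e-06). Dnajb11 lay at 8.66, 8.69 and 8.58 in treated colonies, against 8.93, 9.15 and 8.97 in untreated colonies. The treated arrays were all lower, a change of -0.38 ± 0.067 (adjusted p = 0.00045). Pdia6 (-0.36) and Pdia4 (-0.28) fell, and Sdf2l1 (0.08, adjusted p = 0.342) did not pass. Hspa5 changed by -0.18 ± 0.054 (adjusted p = 0.0175), a call lost without replicate 2 of the treated colonies (adjusted p = 0.0643), without replicate 3 of them (adjusted p = 0.0527) and without replicate 2 of the untreated colonies (adjusted p = 0.0517). Hyou1 (-0.17) lost its call with centring (adjusted p = 0.0913), with cyclic loess (0.164), with the compared groups alone (0.0813) and without any 1 of the 3 treated arrays or of replicates 1 and 2 of the untreated ones, with adjusted p between 0.057 and 0.177. Herpud1 (-0.21) lost it without replicate 3 of the treated (adjusted p = 0.0738) or replicate 1 (0.054) or 2 (0.0894) of the untreated colonies. Ern1 fell by 0.25, and Eif2ak3 (-0.16), Atf6 (-0.05) and Xbp1 (-0.02) did not pass. Of 17 tRNA synthetases 9 fell and 0 rose, led by Tars (-0.52), and of 11 mitochondrial chaperones and proteases 8 fell and 0 rose. The cystine carrier Slc7a11 (-1.05) and the one-carbon enzyme Aldh1l2 (-0.84) fell among other ATF4-linked genes, of which 10 of 23 were lower and 3 higher. The kinase gene Eif2ak2 (PKR) fell by 0.84. Of the fibroblast markers 7 of 10 fell and 0 rose, with Lum at -1.67, Dcn at -0.99 and Col1a1 at -0.42. Of the pericyte markers 3 of 6 rose, such as Mcam (1.40) and Cspg4 (0.51), and Rgs5 (-0.80) fell. The leukocyte markers Cd14 (-1.24) and Cd68 (-0.23) and the endothelial marker Egfl7 (-0.26) fell, and the cardiomyocyte markers Tnnt2 (0.78) and Actc1 (0.40) rose. The part of these markers was not tested.

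Passage 15 against passage 5 in treated small colonies asked what time in culture changed under PDGF-AB, and shares the treated passage 5 arrays with the comparison above. All 9 amino acid and one-carbon genes rose, with a median change of 0.81, while the factors were split (3 higher, 3 lower, median 0.01) and the chaperones had a median of -0.05. Of the 40 members 15 were called higher and 11 lower, against 24.6% of all genes called higher and 21.4% lower (29.8% and 36.0% at or above the median level, all-gene median 0.05). Psat1 rose by 1.61 ± 0.062, 3.06-fold (adjusted p = 1.8e-12), and Slc7a5 by 1.34 ± 0.065, 2.54-fold (adjusted p = 3.6e-11). Shmt2 lay at 10.69, 10.60 and 10.70 at passage 15, against 9.57, 9.49 and 9.47 at passage 5. Aldh18a1 lay at 10.80, 10.77 and 10.86 at passage 15, against 9.76, 9.69 and 9.69 at passage 5. Both genes were higher in every array at passage 15, Shmt2 by 1.16 ± 0.057 (adjusted p = 4.4e-11) and Aldh18a1 by 1.10 ± 0.058 (adjusted p = 1.1e-10). Asns rose by 0.81 ± 0.052 (adjusted p = 1.4e-09), and Phgdh (0.67), Sars (0.54), Mthfd2 (0.49) and Slc3a2 (0.44) rose too.

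Among the factors, Trib3 rose by 1.02 ± 0.11 and Cebpg by 0.59, while Nupr1 fell by 1.16 ± 0.056 (adjusted p = 3.2e-11), Ppp1r15a by 0.78 and Ddit3 by 0.30 ± 0.078 (adjusted p = 0.00485). Atf4 (0.00 ± 0.057, adjusted p = 0.991), Chac1 (0.10, adjusted p = 0.208), Atf3 (-0.08, adjusted p = 0.352) and Atf6 (0.02, adjusted p = 0.775) did not pass. Atf5 (0.20) lost its call with arrays centred on their medians (adjusted p = 0.115) and without replicate 1 (adjusted p = 0.157) or 2 (adjusted p = 0.064) of passage 15 or replicate 2 (adjusted p = 0.108) or 3 (adjusted p = 0.121) of passage 5. Eif2ak3 fell by 0.69 and Xbp1 by 0.28 ± 0.053 (adjusted p = 0.00028), and Ern1 (-0.06) was not called. Of the 14 chaperones 2 rose, Pdia6 (0.59) and Hyou1 (0.18), and 5 fell, Dnajc3 (-0.56), Dnajb9 (-0.52), Manf (-0.32), Creld2 (-0.27) and Hspa5 (-0.15 ± 0.054, adjusted p = 0.034). At or above the median level, 29.8% of genes rose and 36.0% fell. The Hspa5 call was lost with cyclic loess (adjusted p = 0.298) and without replicate 1 (0.122) or 3 (0.0556) of passage 15 or any array of passage 5 (0.055 to 0.107). Hyou1 lost its call with centring (adjusted p = 0.0916) and without replicate 3 of passage 15 (adjusted p = 0.0643) or replicate 2 of passage 5 (0.0641). Sdf2l1 changed by -0.08 (adjusted p = 0.269). In ERAD, Herpud1 rose (0.27) and Sel1l fell (-0.23).

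The tRNA synthetases rose as well, with 16 of 17 higher and 0 lower (median 0.51), led by Lars (1.11), Eprs (0.97) and Kars (0.88). For these lists, the shares over all genes were 24.6% higher and 21.4% lower (29.8% and 36.0% at or above the median level). Of the 23 other ATF4-linked genes 13 rose and 4 fell, with Slc7a11 at 2.59 (6.02-fold), Aldh1l2 at 1.56 and Ddit4 at -1.47. Of the 12 genes for eIF2 kinases, phosphatase and eIF2B 6 rose, such as Eif2b3 (0.64), an eIF2B subunit, and 4 fell, such as Eif2ak4 (-0.68), the kinase GCN2 that senses uncharged tRNA. Mitochondrial chaperones and proteases rose for 9 of 11, such as Hspd1 (0.94), and cytosolic heat shock genes fell for 7 of 13, such as Hspa1a (-0.93). The leukocyte marker Lyz2 fell by 3.58 and Cd14 by 0.39 in this comparison, while Ptprc, Tyrobp, Adgre1 and Csf1r rose. The 9 leukocyte markers averaged 4.82 to 4.90 per array at passage 15, against 5.20 to 5.21 at passage 5. Cardiomyocyte markers had 3 of 9 higher, among them Myl3 (0.31) and Ttn (0.16), and 1 lower, Tnnt2 (-1.30). Fibroblast markers had 5 of 10 higher, such as Ddr2 (0.57) and Col1a1 (0.55), and 1 lower, Lum (-1.70). Pericyte markers had Cspg4 (1.51) and Kcnj8 higher and Mcam (-1.78) and Notch3 (-0.61) lower, and 4 of 9 endothelial markers were higher, by 0.32 for Egfl7. Their part in the members' changes was not tested.

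**Figure D4:**
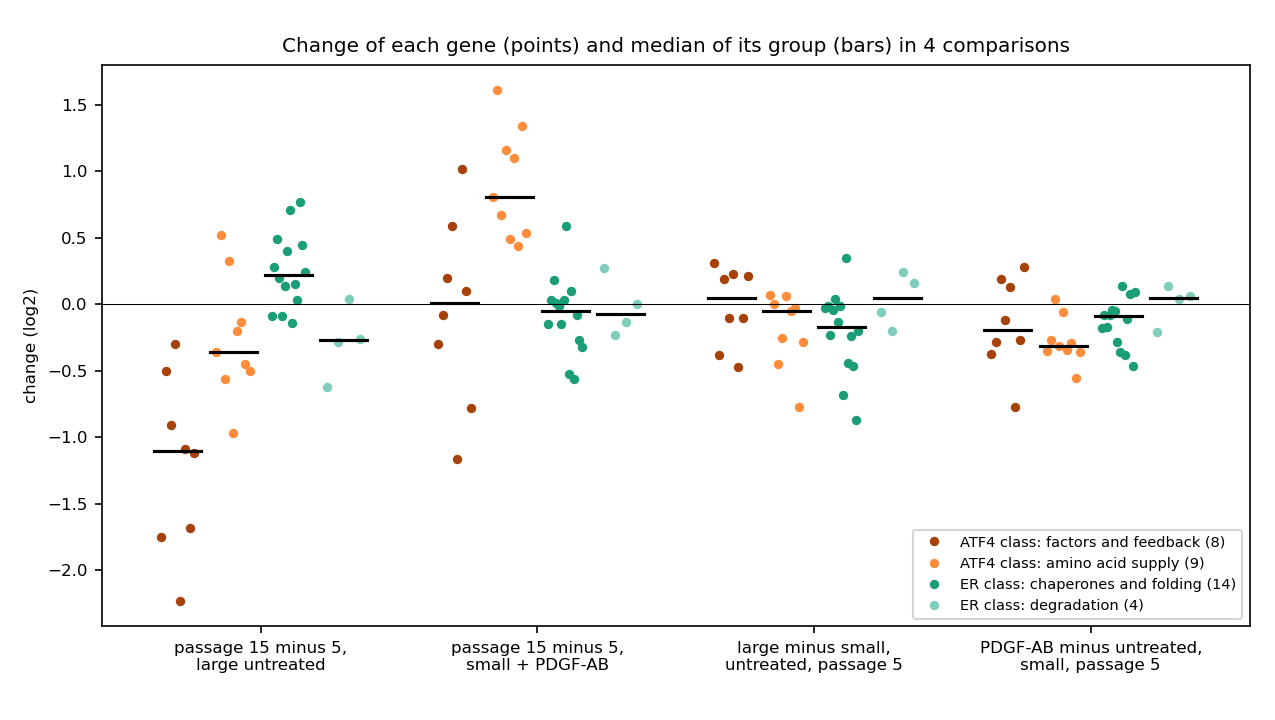
Log2 change of each gene (points) and the median of its group (black bars) for ATF4 class factors (8), ATF4 class amino acid genes (9), ER chaperones (14) and ERAD genes (4), in 4 comparisons. The factors have a median of -1.10 for passage in large colonies and of 0.01 for passage in treated small colonies, where the amino acid genes have a median of 0.81.

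Treated small against untreated large colonies at passage 15 compared the late cultures, with colony size and PDGF-AB confounded. All 17 ATF4 targets were higher in treated small colonies (median 0.96), and 11 of 14 chaperones and folding enzymes were lower (median -0.26). Of the 40 members 22 were called higher and 14 lower, against 29.2% of all genes called higher and 24.2% lower (23.2% and 41.5% at or above the median level, all-gene median 0.07). Slc7a5 was higher by 2.01 ± 0.065, 4.03-fold (adjusted p = 1.7e-13), and Trib3 by 1.81 ± 0.11, 3.52-fold (adjusted p = 4.2e-10). Phgdh lay at 9.66, 9.70 and 9.63 in treated small colonies, against 7.87, 8.04 and 7.91 in large colonies. Mthfd2 lay at 10.46, 10.51 and 10.48 in treated small colonies, against 9.04, 9.43 and 8.99 in large colonies. For both genes every treated small array was above every large one, by 1.72 ± 0.069 for Phgdh (adjusted p = 2.9e-12) and by 1.33 ± 0.087 for Mthfd2 (adjusted p = 2e-09). Chac1 was higher by 1.61 ± 0.062, 3.06-fold (adjusted p = 1.6e-12). Atf5 (1.11), Aldh18a1 (1.01), Nupr1 (0.97), Sars (0.96), Cebpg (0.87), Psat1 (0.81), Ddit3 (0.77), Asns (0.75), Shmt2 (0.75), Atf3 (0.52), Ppp1r15a (0.41) and Slc3a2 (0.31) were higher as well. Atf4 was higher by 0.66 ± 0.057 (adjusted p = 5.8e-08).

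Atf6 was also higher in treated small colonies (0.38 ± 0.055, adjusted p = 2.8e-05), and Xbp1 (-0.33 ± 0.053, adjusted p = 8e-05) and Eif2ak3 (-0.70) were lower. Chaperones that were lower included Pdia4 (-0.65), Dnajb9 (-0.59), Dnajc3 (-0.46), Sdf2l1 (-0.32 ± 0.06, adjusted p = 0.00032), Creld2 (-0.31), Hsp90b1 (-0.31), Manf (-0.26), Hyou1 (-0.25), Calr (-0.23), Hspa5 (-0.20 ± 0.054, adjusted p = 0.00495) and Pdia3 (-0.20), the isomerase that works with the lectin chaperones. With cyclic loess the calls of Hspa5, Hyou1, Pdia3 and Manf were lost (adjusted p of 0.101, 0.0665, 0.168 and 0.0534), and that of Pdia3 also without replicate 1 of the large colonies (adjusted p = 0.0519). Pdia6 (0.20) was higher, and Canx (0.00), the other lectin chaperone, and Dnajb11 (0.01) were not called. Herpud1 (0.74), the ERAD gene whose promoter held the response element core, and Sel1l (0.39) were higher, Syvn1 (-0.36) was lower, and Edem1 (0.15) did not pass.

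The related lists in the late cultures had 13 of 17 tRNA synthetases higher and 1 lower (median 0.36), with Cars at 1.08, Wars at 1.02 and Yars at 1.00. Of the 23 other ATF4-linked genes 16 were higher and 4 lower. Slc7a11 (3.71, 13.1-fold), Cth (3.00), an enzyme of cysteine synthesis, and Aldh1l2 (2.43) led them. Genes of ER import, glycosylation and export were lower for 13 of 28 and higher for 5. Over all genes 24.2% were lower and 29.2% higher (41.5% and 23.2% at or above the median level). Of the 12 genes for eIF2 kinases, phosphatase and eIF2B 6 were lower, such as Eif2ak2 (-0.81) and Eif2ak1 (-0.65), and 5 higher, such as Ppp1r15b (0.72). Of the 28 other ER folding and degradation genes 6 were higher, such as Ero1a (1.38), and 15 lower, such as Creb3l2 (-1.09). The collagen folding list had 5 of 15 higher, such as Plod2 (1.25), and 5 lower, such as Fkbp14 (-0.84). Fibroblast markers went both ways, with Col3a1, Col1a1, Col1a2 and Ddr2 higher in treated small colonies and Thy1 (-5.14), Lum (-4.34), Dcn (-1.90) and Pdgfra lower. Leukocyte markers averaged 4.82 to 4.90 per array in treated small colonies, against 5.25 to 5.29 in large ones. Their median change was 0.02, with 3 of 9 higher, such as Tyrobp (0.42), and 4 lower, led by Lyz2 (-3.38) and Cd14 (-0.86). Cardiomyocyte markers had 4 of 9 higher, led by Tnnt2 (1.76), and endothelial markers 6 of 9, led by Tek (0.42), with 0 lower in either list. The endothelial markers were at low levels. They averaged 4.93 to 4.98 per array in treated small and 4.68 to 4.82 in large colonies, below the median level over all genes of 6.00. Pericyte markers had 3 of 6 higher, such as Cspg4 (2.57), and 2 lower, Rgs5 (-1.99) and Kcnj8 (-1.31). The part of these markers was not tested.

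The passage change in treated small colonies minus that in untreated large colonies was tested directly in the same fit. All 17 ATF4 targets had a higher passage change in treated small colonies (median of the difference 1.11), and 9 of 14 chaperones had a lower one (median -0.29). Of the 40 members 21 were called higher and 10 lower, against 18.6% of all genes called higher and 15.9% lower (19.6% and 26.7% at or above the median level, all-gene median 0.07). Trib3 differed by 2.11 ± 0.15 (adjusted p = 1.3e-08), having risen in treated small and fallen in large colonies. Slc7a5 differed by 1.79 ± 0.092 (adjusted p = 2.5e-10) and Chac1 by 1.78 ± 0.087 (adjusted p = 1.4e-10). Chac1 fell with passage in large colonies and was not called in treated small ones. Mthfd2 differed by 1.46 ± 0.12 (adjusted p = 1.2e-07), Ddit3 by 1.45 ± 0.11 (adjusted p = 3.3e-08) and Asns by 1.17 ± 0.074 (adjusted p = 3.3e-09). Atf4 (0.73 ± 0.08, adjusted p = 2.6e-06), Atf6 (0.50 ± 0.078, adjusted p = 0.00011) and Atf3 (0.42 ± 0.089, adjusted p = 0.00155) differed in the same direction. Sdf2l1 differed by -0.86 ± 0.085 (adjusted p = 7.6e-07), Creld2 by -0.73 and Dnajc3 by -0.59, while Hspa5 (-0.05 ± 0.077, adjusted p = 0.609) and Xbp1 (-0.20 ± 0.074, adjusted p = 0.0507) did not pass. Xbp1 passed in 4 alternatives (adjusted p between 0.0113 and 0.0495), 1 of them without replicate 3 of treated small colonies at passage 15 (adjusted p = 0.0321). Herpud1 had a higher passage change in treated small colonies, by 0.89, and of the tRNA synthetases 13 of 17 had a higher and 0 a lower passage change (median 0.81). Eif2ak3 (-0.25), Hsp90b1 (-0.24) and Edem1 (0.26) lost their calls when single arrays were left out. For Eif2ak3 these were replicate 1 of large colonies at passage 15, replicates 2 and 3 of large colonies at passage 5, replicate 3 of treated small colonies at passage 15 and replicate 2 at passage 5 (adjusted p between 0.0554 and 0.0653). For Hsp90b1 they were replicate 1 of large colonies at passage 15, replicate 2 of large colonies at passage 5 and replicate 1 of treated small colonies at passage 15 (adjusted p between 0.0532 and 0.0601). For Edem1 they were replicate 2 of large colonies at passage 15, replicates 1 and 3 of large colonies at passage 5, replicates 1 and 3 of treated small colonies at passage 15, and replicates 2 and 3 at passage 5 (adjusted p between 0.0625 and 0.0726). The chaperones and the ATF4 targets were not tested against each other.

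Cell type markers also differed in their passage change. The shares over all genes were 18.6% higher and 15.9% lower (19.6% and 26.7% at or above the median level). Fibroblast markers had 3 of 10 with a higher change in treated small colonies and 5 with a lower one, led by Lum (-2.23), Pdgfra (-1.91) and Col1a2 (-0.96). Leukocyte markers had 3 of 9 higher, such as Tyrobp (0.45), and 2 lower, Lyz2 (-3.85) and Cd14 (-1.48). Pericyte markers had 2 of 6 higher, such as Rgs5 (1.72), and 3 lower, such as Notch3 (-0.91) and Mcam (-0.72). Endothelial markers had 5 of 9 higher, led by Tek (0.71), and cardiomyocyte markers 3 of 9 higher and 1 lower, Tnnt2 (-0.64). The part of these markers in the members' differences was not tested.

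**Figure D5:**
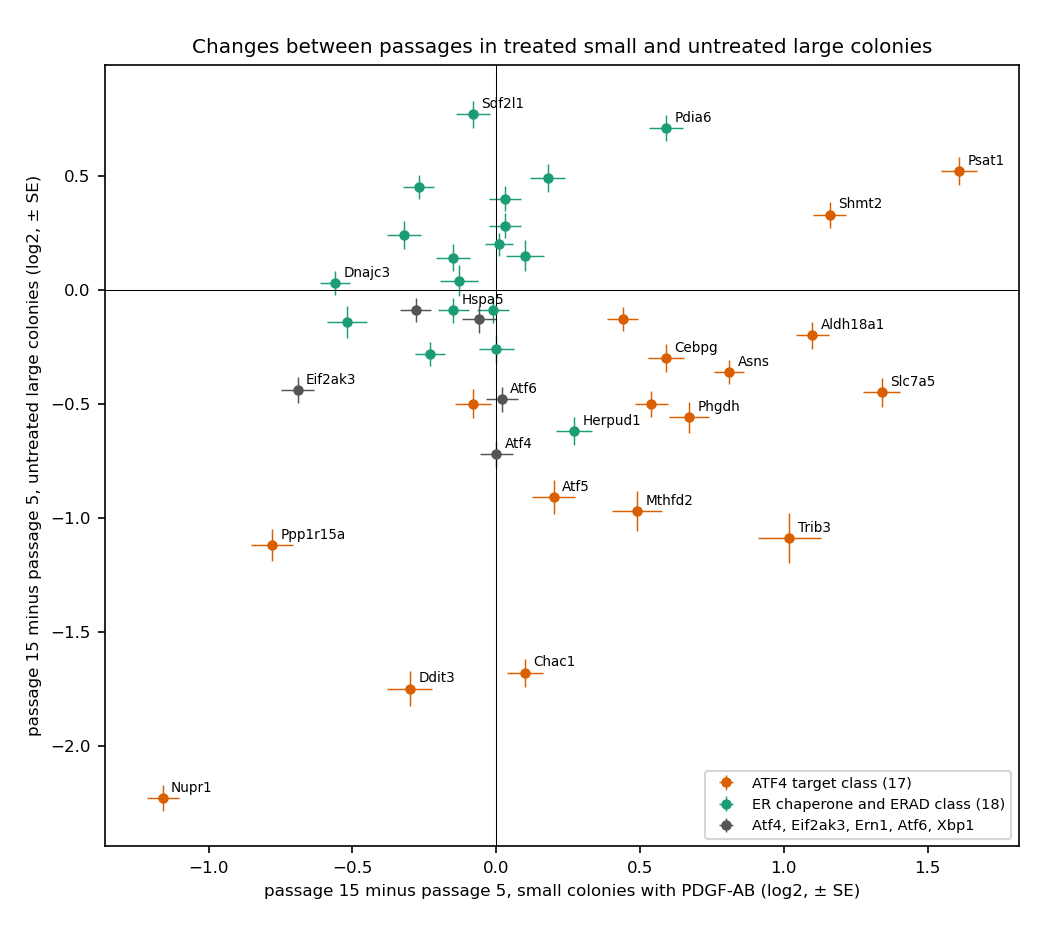
Log2 change of each member between passages, passage 15 minus passage 5, in treated small colonies (horizontal axis) against untreated large colonies (vertical axis), with SE bars and colours by class. All 17 ATF4 targets have a higher change in treated small colonies than in large ones, and 9 of 14 chaperones passed the test with a lower change. Many of the ATF4 targets, such as Slc7a5, Trib3, Asns, Phgdh and Mthfd2, have changes of opposite signs.

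A minimum change of 2-fold left fewer members. For passage in large colonies 0 members were higher and 5 lower, against 2.59% and 1.18% of all genes. The 5 were Nupr1, Ddit3, Chac1, Ppp1r15a and Trib3. For colony size 0 were higher and 0 lower, against 1.82% and 2.11%, and for PDGF-AB 0 and 0, against 0.411% and 0.983%. For passage in treated small colonies 5 were higher (Psat1, Slc7a5, Shmt2, Aldh18a1 and Trib3) and 1 lower (Nupr1), against 2.47% and 2.79%. Between the late cultures 7 were higher and 0 lower, against 1.26% and 3.38%, and for the difference in passage change 12 were higher and 0 lower, against 1.41% and 2.82%.

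Of the 8 members with an ER stress element in the promoter window, Hsp90b1, Calr, Pdia6 and Creld2 rose with passage in large colonies and 0 fell, beside 8 higher and 3 lower of all 18 ER genes. Between large and small colonies, Pdia6, Dnajc3 and Creld2 were lower and Syvn1 higher. The 5 ATF4 targets with a response element core, Atf3, Nupr1, Trib3, Chac1 and Asns, fell with passage in large colonies, where 14 of all 17 ATF4 targets fell. With passage in treated small colonies Trib3 and Asns rose, Nupr1 fell, and Atf3 and Chac1 were not called. Herpud1, the ER gene with a core, fell in large and rose in treated small colonies. Pdia4 and Dnajc3 had a second probe set. That of Dnajc3 had the same mean level and the same changes as the set used, so it adds no separate reading. That of Pdia4, at a mean of 4.50, gave 0.28 for passage in large colonies and -0.21 between the late cultures, against 0.40 and -0.65 for the set used. It gave -0.30 for colony size and -0.14 for passage in treated small colonies, against -0.01 and 0.03. Under PDGF-AB it gave -0.10, against -0.28.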

How the data were processed

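RNA of 15 samples was measured on 1-colour Affymetrix gene arrays. The deposited values are log2 intensities, and the submitters' processing notes name RMA (background correction, quantile normalization and summary to probe sets) and limma. Platform annotation gave 1 gene for 21789 of 28853 probe sets, several for 1621 and none here for 5443, leaving 19938 genes, each read from its probe set of highest mean. The number of arrays limits the precision: the median SE of a difference was 0.0778. From these values a limma fit (limma 3.58.1, R 4.3.3) over all 5 groups, without a replicate block, gave 6 comparisons with empirical Bayes moderation (10 residual and 5.8 prior degrees of freedom), 2-sided p-values and Benjamini-Hochberg adjustment over the 19938 genes. The fit was tested on simulated data. No filter on low values was used.

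The 40 members, their classes and the 8 lists of related genes (147 of 159 genes tested) were chosen with earlier results of these data known, so their counts are descriptions. Values per array are given for 9 fixed genes and for the 5 called members with the largest change in each comparison, and up to 3 called genes per list by smallest adjusted p. All 40 members were matched to RefSeq, build GRCm38.p6, for coordinates and promoters. Same-numbered arrays correlated between -0.277 and 0.208 in their deviations from group means, which did not meet the rule for pairing. Alternatives covered the scaling, the arrays fitted, the variance model, the choice of probe set, low genes, a fold minimum and each array left out.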

Additional observations from a re-analysis of the deposited data

Results flagged for a closer look

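The passage change differed between treated small and untreated large colonies for 31 of the 40 members, 21 with a higher and 10 with a lower change in treated small colonies, tested as an interaction term in limma (adjusted over all genes). Over all genes 18.6% had a higher and 15.9% a lower change. In 12 of the 31 both passage changes were called, in opposite directions. Among these 12, Atf5 lost its call in treated small colonies in 6 of 13 alternatives. Aldh18a1 lost its call in large colonies in 2 of 13. Colony size and PDGF-AB cannot be told apart in the difference between passage changes. Values below are log2 differences, the change in treated small colonies minus that in large ones.

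Among the factors and feedback genes the differences were 2.11 for Trib3, 1.78 for Chac1, 1.45 for Ddit3, 1.11 for Atf5, 1.07 for Nupr1, 0.89 for Cebpg, 0.42 for Atf3 and 0.34 for Ppp1r15a. Nupr1 fell in both colony types, by 1.16 in treated small and by 2.23 in large colonies, and so did Ppp1r15a and Ddit3. Among the amino acid genes they were 1.79 for Slc7a5, 1.46 for Mthfd2, 1.29 for Aldh18a1, 1.23 for Phgdh, 1.17 for Asns, 1.09 for Psat1, 1.04 for Sars, 0.82 for Shmt2 and 0.57 for Slc3a2. Psat1 rose in both colony types, by 1.61 in treated small and by 0.52 in large colonies.

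Upstream, Atf4 differed by 0.73, Atf6 by 0.50 and Eif2ak3 by -0.25. In the ER class, Sdf2l1 differed by -0.86, Creld2 by -0.73, Dnajc3 by -0.59, Manf by -0.56, Pdia4 and Dnajb9 by -0.38 each, Hyou1 by -0.30, Pdia3 by -0.28 and Hsp90b1 by -0.24. The ERAD genes Herpud1 and Edem1 differed by 0.89 and 0.26. Sdf2l1, Creld2 and Manf rose with passage in large colonies; in treated small colonies Creld2 and Manf fell and Sdf2l1 changed by -0.08, which did not pass.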

How the results depend on the processing

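Apart from a fold minimum, 162 of 168 counts of members called stayed within 1.5 times the reported count, 144 of 156 class medians moved by less than the spread between replicates, and 1044 of 1073 values of named members kept direction and side of the threshold. Requiring 2-fold changes left 0 members higher and 5 lower for passage in large colonies (2.59% and 1.18% of all genes). It left 0 and 0 for colony size (1.82% and 2.11%) and for PDGF-AB (0.411% and 0.983%), and 5 and 1 for passage in treated small colonies (2.47% and 2.79%). Between the late cultures 7 and 0 were left (1.26% and 3.38%), and for the difference in passage change 12 and 0 (1.41% and 2.82%). For colony size, 4 members were called higher with the compared groups alone and 4 to 7 with single arrays left out. For PDGF-AB, 4 were called higher with median centring, with the lower-level genes left out and with trend and robust variance, and 6 with cyclic loess. Centring also moved the share of calls that were higher over all genes, to 38.0% from the reported 48.3% for passage in large colonies, to 47.8% from 37.1% for PDGF-AB and to 43.6% from 53.6% for passage in treated small colonies. With loess it became 46.8%, from 54.6%, between the late cultures and 44.5%, from 53.9%, for the difference. The ER class median became 0.094 with centring, and 0.12 to 0.185 with single arrays left out, for passage in large colonies. It became -0.164 with loess and -0.144 with probe sets averaged for colony size, and -0.048 with centring for PDGF-AB. For passage in treated small colonies it became -0.097 with centring and 0.008 with loess, and between the late cultures -0.134 with loess. The ATF4 class median became 0.594 with loess for passage in treated small colonies, 1.068 with loess between the late cultures, and 1.074 to 1.167 with single arrays left out for the difference. Changes that were not called turned sign: Xbp1 under PDGF-AB (0.011 with centring, 0.018 with loess), Atf6 under PDGF-AB (0.031 with loess), and, for passage in treated small colonies, Atf4 (-0.049 with centring; -0.014, -0.013, -0.001 and up to 0.016 as single arrays were left out) and Atf6 (-0.028 with centring; -0.014 to 0.050 as single arrays were left out). Among the 9 fixed genes, Hspa5 gained a call for passage in large colonies with centring (-0.143, adjusted p = 0.0433). For colony size Atf4 gained one with the lower-level genes left out (adjusted p = 0.0252) and Xbp1 with trend and robust variance (0.0464). For the difference Xbp1 gained one with those settings (0.0204 and 0.0113), with probe sets averaged (0.0495) and without replicate 3 of treated small colonies at passage 15 (0.0321). Other members gained calls too. Sel1l, Atf5 and Nupr1 did so under PDGF-AB with centring, with loess, with the lower-level genes left out and with trend and robust variance. With the compared groups alone, Ern1, Ppp1r15a, Syvn1 and Edem1 lost their calls for colony size (adjusted p of 0.0669, 0.0548, 0.0583 and 0.0887) and Hspa5 for passage in treated small colonies (0.0585), and Edem1 lost its call for colony size with loess (0.0714). The causes were not tested. With the replicate number as a block, members called higher and lower were 10 and 20, 7 and 15, 1 and 19, 14 and 11, 23 and 14, and 21 and 10 in the order of comparisons above. That block ended the calls of Hyou1 under PDGF-AB (adjusted p = 0.0551) and of Atf5 for passage in treated small colonies (adjusted p = 0.0541). It added that of Edem1 between the late cultures. Edem1 gained this call also with centring, loess, the lower-level genes left out, and trend and robust variance, and without replicate 2 of treated small colonies at passage 15. The 3 arrays of a group limit the smallest changes.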
